A study of Mus musculus with 8 samples.

Results

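Anti-CTLA-4 was compared with isotype IgG in mice whose B cells had been depleted with anti-CD20, in 17969 cells of the 49060 cells of the 5 expression libraries. Every barcode of the 2 depleted libraries in which 500 or more genes were detected and no more than 10% of UMIs were mitochondrial was taken, which gave 8950 cells for isotype and 9019 for anti-CTLA-4. The series addresses how CTLA-4 blockade acts on lymph nodes that drain a glioma. Mice of the C57BL/6 strain carried GL261 cells, a mouse glioma line, in the brain, and their deep cervical lymph nodes, which drain the brain and the meninges, were taken on day 20. Live immune cells were sorted by flow cytometry and sequenced with 10x 5′ V2 chemistry. Both depleted groups received anti-CD20, an antibody against the B cell surface protein encoded by Ms4a1, and differed in the second antibody, which was isotype IgG or anti-CTLA-4. A second pair of libraries had the same antibodies without anti-CD20, in wild-type mice, and its 21289 cells are given beside the depleted pair as a description. The remaining expression library, labelled DPBS, was clustered together with these and entered no ratio. Antibody doses, the times of injection, the age and sex of the mice and the number of mice per library are unstated in the labels. Each group is 1 library, so treatment and library cannot be told apart, no test was made, and the 95% intervals below cover counting error only.

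CTLA-4 is a receptor of activated T cells and of regulatory T cells (Treg) that binds CD80 and CD86 on antigen-presenting cells more tightly than the costimulatory receptor CD28 does. Antibodies to CTLA-4 free these ligands for CD28, and in mice some of them also remove Treg cells in tumours. Lymph nodes hold mostly B cells and naive T cells. Beside them are follicular helper T cells (Tfh), which help germinal centre B cells, NK cells, innate lymphoid cells (ILC) and gamma-delta T cells. Migratory dendritic cells (DC) carry antigen there from the drained tissue.

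The heat shock genes and the type I interferon response each differed in the same direction in several classes of cells, but not in all. Immediate early genes were also higher in several classes. The proximal promoters of 2 heat shock genes and of 2 interferon-response genes are shown. The sequences are the 250 bases before the start of each gene from RefSeq on GRCm38.p6, written 5′ to 3′ on the strand of the gene. Capitals mark the letters GAANNTTC, a pair of heat shock element units, in the first 2 promoters, and a pair of GAAA units with any 2 bases between them, the interferon-stimulated response element, in the others, both searched on both strands. Hspa1a lies at chr17:34972157-34972406 on the minus strand, and its match begins 104 bases before the gene's start. Hspb1 lies at chr5:135887669-135887918 on the plus strand, with matches beginning at 117 and 97 bases. Isg15 lies at chr4:156200819-156201068 on the minus strand, with 3 overlapping matches beginning at 78, 72 and 66 bases. Ifit3 lies at chr19:34583279-34583528 on the plus strand, with 2 matches at 156 and 122 bases, both on the opposite strand, so that the units read TTTC here.
Hspa1a: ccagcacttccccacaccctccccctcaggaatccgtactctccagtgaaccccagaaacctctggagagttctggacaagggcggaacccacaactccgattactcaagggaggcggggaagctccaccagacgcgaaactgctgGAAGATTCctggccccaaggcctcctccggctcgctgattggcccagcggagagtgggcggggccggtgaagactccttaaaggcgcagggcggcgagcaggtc
Hspb1: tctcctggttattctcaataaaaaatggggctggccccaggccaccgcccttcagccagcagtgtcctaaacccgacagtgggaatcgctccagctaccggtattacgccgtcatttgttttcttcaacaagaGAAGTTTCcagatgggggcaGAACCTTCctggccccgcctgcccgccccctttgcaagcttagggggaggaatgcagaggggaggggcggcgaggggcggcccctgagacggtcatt
Isg15: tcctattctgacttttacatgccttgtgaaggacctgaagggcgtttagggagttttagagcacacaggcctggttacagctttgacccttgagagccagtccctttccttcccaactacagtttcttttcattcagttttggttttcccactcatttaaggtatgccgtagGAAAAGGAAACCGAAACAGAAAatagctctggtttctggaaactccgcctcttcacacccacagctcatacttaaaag
Ifit3: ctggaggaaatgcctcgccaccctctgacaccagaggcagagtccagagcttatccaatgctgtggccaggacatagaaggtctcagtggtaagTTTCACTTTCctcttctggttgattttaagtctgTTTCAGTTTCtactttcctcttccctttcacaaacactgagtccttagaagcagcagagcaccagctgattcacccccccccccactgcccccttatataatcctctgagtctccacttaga
GAANNTTC was present in 6.69% of 32851 promoters and in 6 of the 11 heat shock genes that the promoter table held, of 14 in the list. The pair of GAAA units was present in 2.98% of the same promoters and in 13 of 23 interferon genes, of 30 in the list. These matches describe the letters of the windows and no binding was measured. The promoters of Hspa1a and Hspa1b, near-identical neighbouring genes for the inducible chaperone HSP70, were the same at 247 of 250 bases, and since reads can be split between the copies their sum is given for levels, and a value of either copy alone is uncertain.

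The libraries were close in depth. The isotype library held 61019425 UMIs with a median of 5997 UMIs and 2054 genes per cell, and the anti-CTLA-4 library held 62150813 UMIs with medians of 6079 and 2098. The median mitochondrial share was 2.07% in both. They shared 108 cell barcodes, 1.21% of those of the isotype library, and shared barcodes were no more frequent than with the libraries of the other treatments (115 to 131). After removal of the cells with the highest doublet scores, 8309 and 8368 cells remained. Anti-CD20 left few B cells: the B lineage made up 0.722% and 1.09% of the depleted libraries, against 52.1% and 49.1% of the pair with B cells. Both antibodies act on proteins, so the transcript levels of Ms4a1 and Ctla4 given below do not measure their effect.

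Naive CD4 and naive CD8 T cells made up most of both nodes. Naive CD4-like cells were 36.6% of isotype cells (3038 cells) and 34.6% of anti-CTLA-4 cells (2898), a ratio of 0.947 (95% interval 0.909 to 0.987). Naive CD8-like cells were 29.7% and 29.5% (2469 and 2472 cells), a ratio of 0.994. Treg-like cells, named from Foxp3, Il2ra and Ikzf2, were 8.16% (678 cells) and 9.44% (790), a ratio of 1.16 (1.05 to 1.28), and counted cell by cell from marker UMIs without clusters the ratio was 1.07 (0.954 to 1.19). With B cells present the corresponding Treg ratios were 1.19 and 1.12. Within the Treg-like class the effector Treg-like cluster held 51 and 54 cells.

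Among activated T cells the clusters differed from each other. Memory CD8-like cells were 3.26% (271 cells) and 4.24% (355), a ratio of 1.30 (1.11 to 1.52), whereas a CD8 cluster led by Ly6c2, an antigen of activated and memory CD8 cells, was 284 and 240 cells, a ratio of 0.839 (0.709 to 0.994). Together they gave 555 and 595 cells and a ratio of 1.06. The split between them depended on the clustering resolution and on the cell filter: the Ly6c2-led ratio was 1.03 at a resolution of 2 and 1.14 with a stricter filter. The joint ratio was 1.2 to 1.22 under 4 of 5 alternatives. Counted cell by cell, 615 and 693 cells met the memory CD8 marker count, a ratio of 1.12 (1.01 to 1.24). The interferon-responding CD8 cluster held 165 and 205 cells (1.23, 1.01 to 1.51, and 0.956 at a resolution of 0.5), and the interferon-responding CD4 cells were 166 and 160 (0.957, and 1.503 with the stricter filter). Antigen-experienced CD4 clusters were named from their summed Tfh and Th1 effector markers, and their cells were clustered again. They held 302 and 289 cells, a ratio of 0.95 (0.811 to 1.11), against 128 and 238 cells and a ratio of 1.55 with B cells present. The difference between the pairs was not tested. The Tfh-like cluster within them held 15 cells in each depleted library, and 37 and 46 cells met the Tfh marker count (1.23, 0.802 to 1.90). Proliferating T-like cells were 85 and 74 (0.864), and T cells with NK receptors 151 and 167 (1.10).

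The smaller lineages had wide intervals. NK-like cells were 74 and 87 cells, 0.891% and 1.04%, a ratio of 1.17 (0.858 to 1.59), and the count from marker UMIs was 51 and 57 (1.11). Gamma-delta T-like cells, a cluster led by Cd163l1 and the V gamma 6 receptor gene, numbered 11 and 14, a ratio of 1.26 (0.574 to 2.78), and 53 and 65 cells had gamma-delta marker UMIs (1.22, 0.848 to 1.75). Other innate-like T cells were 28 and 22, and ILC-like cells 38 and 35. The innate-like T cluster had 2 gamma-delta and 2 innate-like T markers among its leading genes, so its separation from gamma-delta T-like cells is uncertain. Migratory DC-like cells numbered 58 and 80, 0.698% and 0.956%, a ratio of 1.37 (0.978 to 1.92), and were 40.3% and 59.7% of the cells in named or other myeloid classes. Another cluster led by Fscn1, with 18 and 15 cells, also had T cell markers. It was named mixed lineage and is in none of these counts. cDC1-like cells, the DC type specialised in cross-presentation, numbered 18 and 6, a ratio of 0.331 (0.131 to 0.833), and the marker count was 19 and 10 with an interval of 0.243 to 1.12. Plasmacytoid DC-like cells were 25 and 20, neutrophil-like cells 12 and 7, and other myeloid cells 31 and 21. The rules for naming clusters held no monocyte or macrophage name, so no cluster could be named so. Counted cell by cell, 11 and 5 cells met the monocyte marker count (0.451, 0.157 to 1.30). B lineage cells were 60 and 91, a ratio of 1.51 (1.09 to 2.08), of which 24 and 40 were germinal centre B-like (1.65, 0.999 to 2.74) and 4 and 9 plasma cell-like.

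**Figure D1:**
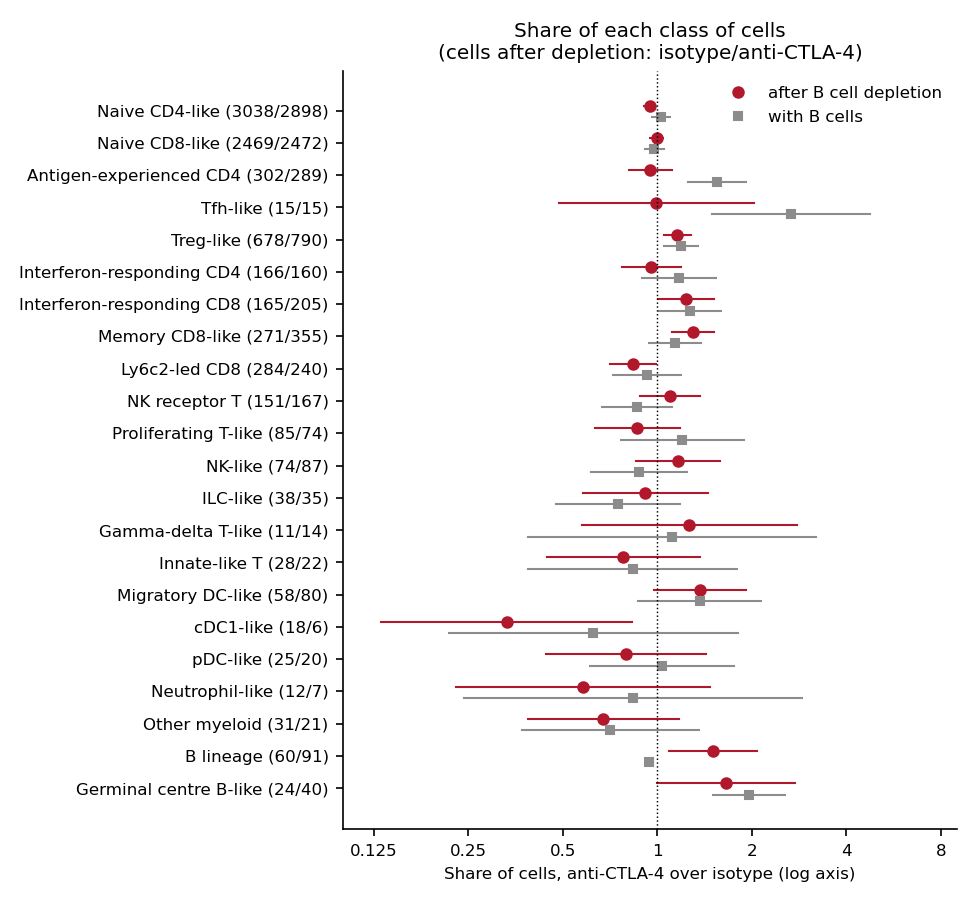
Ratio of the share of each class of cells, anti-CTLA-4 over isotype, on a log axis, after B cell depletion and in the pair with B cells, with bars for 95% counting intervals. After depletion memory CD8-like (1.30) and Treg-like (1.16) cells lie above 1 with their intervals, cDC1-like cells (0.331) lie below it, and NK-like and gamma-delta T-like intervals span 1.

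In naive CD4-like cells anti-CTLA-4 went with higher heat shock and immediate early transcripts and otherwise with few differences. Of 8775 genes with at least 100 UMIs, 0.501% were at least 1.5-fold higher and 0.217% at least 1.5-fold lower. For the lists, which count members with at least 20 UMIs, the corresponding shares of all 10232 genes were 2.67% and 1.26%, with a median log2 ratio of 0.04. The 14 heat shock genes had a median log2 ratio of 0.16, with 12 above and 2 below 0, and 1 member past 1.5-fold. Hspa1a and Hspa1b together had 1232 counts per 1000000 UMIs of the class (CPM) under isotype and 1825 CPM under anti-CTLA-4 (1.48, 1.46 to 1.51). Hspb1, a small heat shock protein, had 68 UMIs (4.12 CPM) and 189 UMIs (11.8 CPM), a ratio of 2.86 (2.16 to 3.83), in 40 and 77 cells. Hsph1, a nucleotide exchange factor of HSP70, was at 243 and 358 CPM (1.47, 1.42 to 1.54), and Dnajb1, its HSP40 partner, at 403 and 518 CPM (1.28). The mix of clusters within the naive CD4-like class differed in the same direction: the cluster with Hspa1a among its 10 leading genes held 433 and 628 cells, and the largest held 894 and 557. The part of this mix in the values of the class was not tested. The constitutive members did not share the size of these differences: Hspa8 had a ratio of 0.972 and Stip1 0.966.

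All 14 immediate early genes of the AP-1 list were higher in naive CD4-like cells, with a median log2 ratio of 0.30 and 1 member past 1.5-fold. Fos, a subunit of the AP-1 transcription factor, was at 153 and 220 CPM, a ratio of 1.44 (1.37 to 1.52). Its partner Jun was at 414 and 581 CPM (1.40, 1.36 to 1.45), and Dusp1, a phosphatase that ends MAP kinase signals, at 186 and 271 CPM (1.46). Igfbp4, a secreted protein of naive CD4 cells, was at 839 and 1215 CPM (1.45, 1.42 to 1.48). In the pair with B cells the ratios were 0.75 for the Hspa1a and Hspa1b sum, 0.509 for Hspb1, 1.08 for Fos, 1.08 for Jun and 0.864 for Igfbp4. The isotype and anti-CTLA-4 libraries of that pair had median mitochondrial shares of 1.01% and 2.09%, while the depleted pair did not differ in it, and the part of RNA quality in either pair was not tested. In the depleted pair the medians within naive CD4-like cells were 5266.5 and 5402 UMIs, B cell markers summed to 28.6 and 24.6 CPM there and macrophage markers to 3.88 and 4.42 CPM.

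Of 15 counted genes of the common gamma chain receptor and SOCS list, 3 were past 1.5-fold higher in naive CD4-like cells and none lower, with 14 above 0 and a median log2 ratio of 0.22. The 1 member below 0 was Il7r. This gene, the receptor chain for the survival cytokine IL-7, was at 345 and 274 CPM, a ratio of 0.794 (0.763 to 0.826), and in naive CD8-like cells the ratio was 0.819 (0.786 to 0.854). With B cells it was 1.05 and 1.245 in the same classes. Il2rb, the chain shared by the IL-2 and IL-15 receptors, had 139 and 208 UMIs in naive CD4-like cells (1.54, 1.24 to 1.92), against 1.57 with B cells. Cish, a STAT5 target that restrains IL-2 receptor signals, had 144 and 213 UMIs (1.52, 1.23 to 1.89), against 0.808 with B cells. The genes with the lowest ratios were Tubb2a, a tubulin, at 46.5 and 30.5 CPM (0.656, 0.585 to 0.736), Tlnrd1 (0.536), Siah3 (0.563) and Cdk5rap1 (0.623). A naive CD4-like cluster with Tubb2a among its 10 leading genes held 640 and 461 cells, and its part in the Tubb2a ratio was not tested. Ctla4 was at 23.8 and 26.6 CPM in naive CD4-like cells (1.12, 0.972 to 1.28), and Cd28 at 233.5 and 224.6 CPM (0.962).

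Naive CD8-like cells showed part of these differences. Of 8770 genes with at least 100 UMIs, 0.331% were at least 1.5-fold higher and 0.16% lower, and for the 10214 genes with at least 20 UMIs the shares were 2.45% and 1.36%, with a median of 0.01. All 14 AP-1 genes were above 0, with 1 past 1.5-fold and a median log2 ratio of 0.25. Fos was at 123 and 187 CPM (1.51, 1.43 to 1.60) and Jun at 292 and 415 CPM (1.42, 1.37 to 1.47). The heat shock list had 13 of 14 genes above 0, a median of 0.13 and 1 member past 1.5-fold, and the Hspa1a and Hspa1b sum was at 729 and 1087 CPM (1.49, 1.46 to 1.53). Hspb1, which had the highest ratio of the list in naive CD4-like cells, was at 10.2 and 11.4 CPM in naive CD8-like cells (1.12, 0.902 to 1.38). Spink13, a protease inhibitor gene, had 30 and 70 UMIs (2.30, 1.48 to 3.66). Spon1 (0.594), Emilin1 (0.579), both extracellular matrix proteins, and Tubb2a (0.721) had the lowest ratios. The naive CD8-like cluster with Spon1 and Tubb2a among its 10 leading genes held 486 and 373 cells and another held 542 and 710, and the part of this mix was not tested. Tshz1, a zinc finger factor, was at 37.1 and 27.7 CPM (0.747) and had a ratio of 1.33 with B cells.

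The HSP70 difference ran through nearly all T and innate lymphoid classes of the depleted pair. The Hspa1a and Hspa1b sum was 1.66-fold higher in T cells with NK receptors (746 and 1235 CPM), 1.62-fold in proliferating T-like cells, 1.42-fold in memory CD8-like and in interferon-responding CD4 cells, 1.37-fold in the Ly6c2-led CD8 cluster, 1.248-fold in antigen-experienced CD4 cells and 1.18-fold in Treg-like cells. The B lineage had 129 and 437 CPM (3.40), with 28.8% of the Hspa1a UMIs of the higher library in 1 cell. In NK-like cells the sum was at 610 and 729 CPM (1.19, 1.03 to 1.38), and in migratory DC-like cells at 1024 and 1143 CPM (1.12, 0.984 to 1.27). The other direction was seen in other myeloid cells, at 707 and 278 CPM (0.393), in the 12 and 7 neutrophil-like cells, with 49 and 1 UMIs, and in the 15 and 15 Tfh-like cells (0.607), while plasmacytoid DC-like cells were level (770 and 759 CPM). Over all cells the sum was at 851 and 1220 CPM (1.43) after depletion, against 1844 and 1130 CPM (0.613) with B cells. Whether the 2 pairs differ was not tested.

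**Figure D2:**
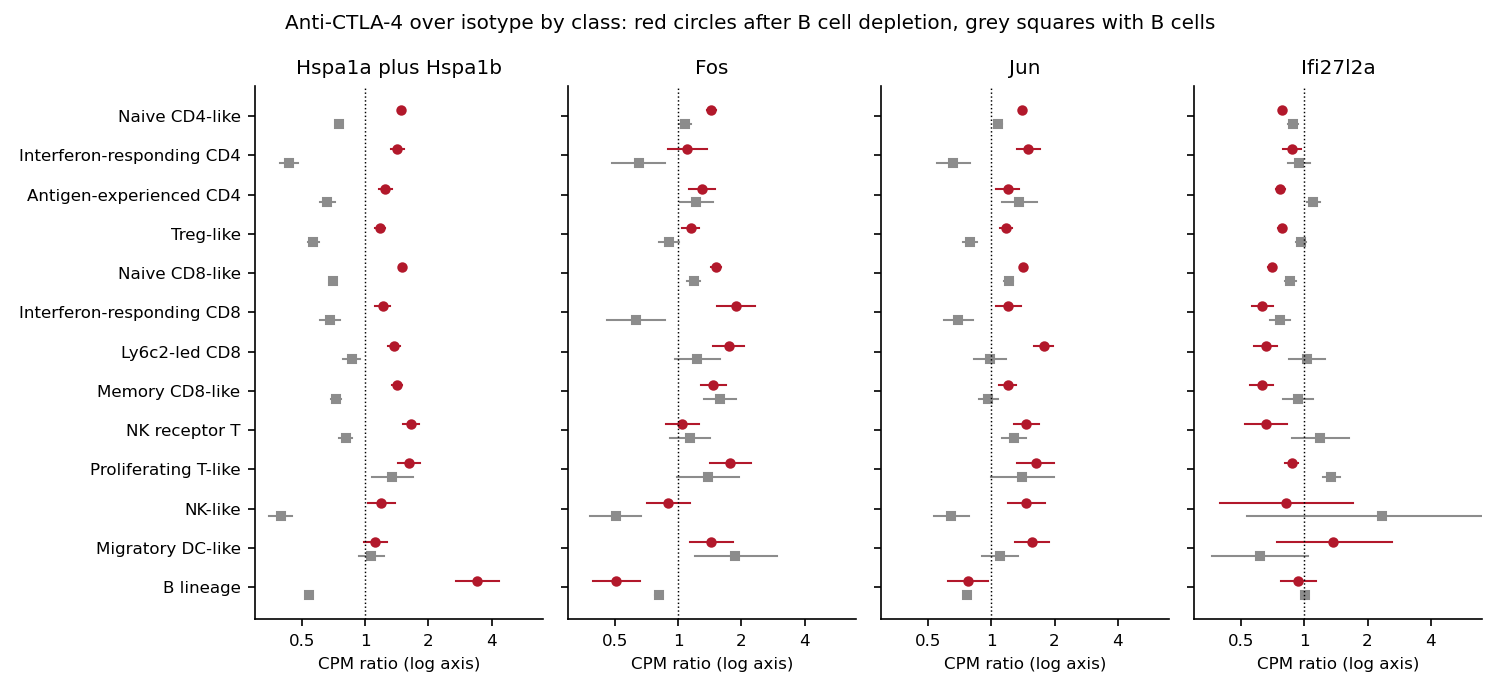
CPM ratio, anti-CTLA-4 over isotype, of stress and immediate early genes in each class on a log axis, with 95% counting intervals, red circles for the depleted pair and grey squares for the pair with B cells (1 interval, of Ifi27l2a in NK-like cells, runs past the axis). In naive CD4-like cells the depleted pair lies above 1 for Fos (1.44), Jun (1.40) and the HSP70 genes (1.48), and the HSP70 genes of the pair with B cells lie below 1 (0.75).

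Antigen-experienced CD4 cells had higher transcripts of Tfh genes, early antigen receptor targets and checkpoint receptors under anti-CTLA-4, and lower interferon-response genes. Of 7306 genes with at least 50 UMIs, 3.08% were at least 1.5-fold higher and 1.53% lower, and of the 8802 genes with at least 20 UMIs 5.6% and 3.6%, with a median of 0.05. The Tfh programme had 12 of 12 counted members above 0, 5 of them past 1.5-fold and none lower, with a median log2 ratio of 0.43. Il4, a helper cytokine of Tfh and Th2 cells, had 11 UMIs (4.52 CPM) in 5 isotype cells and 105 UMIs (46.9 CPM) in 14 anti-CTLA-4 cells, a ratio of 10.4 (5.57 to 21.4), with 40% of the higher sum in 1 cell. Without the Tfh-like cluster the Il4 ratio was 1.71 (0.754 to 4.03). Asb2, a ubiquitin ligase subunit of helper cells, had 12 and 83 UMIs in 7 and 28 cells (7.52, 4.08 to 15.1), and 5.68 (2.49 to 15.1) without the Tfh-like cluster. Il21, the Tfh cytokine that drives germinal centre B cells, had 24 and 47 UMIs (2.13, 1.28 to 3.64), and Pdcd1, which encodes PD-1, 135 and 198 UMIs (1.59, 1.27 to 2.00). Sostdc1, a secreted Wnt and BMP antagonist, had 27 and 70 UMIs in 6 and 8 cells, with 30% in 1 cell. The lineage factor Bcl6 (1.07), the follicle-homing receptor Cxcr5 (1.12, 0.788 to 1.59) and Icos (1.09) differed less.

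The 15 Tfh-like cells of each library showed where part of these sums came from. The cluster was picked for its high summed level of Tfh genes, among them Il4, Asb2 and Bcl6, so these genes took part in choosing the cells. Il4 had 0 UMIs in the isotype cells and 88 in the anti-CTLA-4 cells, in 7 cells, which against a floor of 3 UMIs per class is at least 23.1-fold higher. The single cell with the largest part of the Il4 sum of antigen-experienced CD4 cells was among them. Asb2 had 5 and 47 UMIs (7.40), Nr4a3, a nuclear receptor induced by antigen, 17 and 121 (5.60), and Tigit, an inhibitory receptor, 28 and 110 (3.09). Bcl6 had 14 UMIs in 3 cells and 35 in 13 cells. The depths differed in the same direction, with medians of 5714 and 7553 UMIs, and its part in the counts of cells was not tested. In the pair with B cells the ratios over all antigen-experienced CD4 cells were 2.53 for Il4, 0.88 for Asb2, 0.502 for Il21 and 1.03 for Pdcd1, and the Tfh programme had a median of 0.04.

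Of 14 antigen receptor signalling genes counted in antigen-experienced CD4 cells, 5 were past 1.5-fold higher and none lower, with a median of 0.36, and 12 were above 0. The early growth response factors were the highest of them: Egr3 had 27 and 69 UMIs (2.78, 1.76 to 4.51), Egr2 30 and 62 (2.25, 1.43 to 3.60) and Egr1 149 and 242 (1.77, 1.43 to 2.18). Irf4, a factor that scales with receptor signal, had 127 and 187 UMIs (1.60, 1.27 to 2.02), and Nr4a1, which encodes Nur77, was at 274 and 381 CPM (1.39). Without the cluster led by S100a4 and holding 3 ILC markers among its 10 leading genes (51 and 39 cells), the list median was 0.50, and without the Tfh-like cluster 0.23. Of 17 activation and checkpoint genes 2 were past 1.5-fold higher, Tigit (1.64, 1.29 to 2.08) and Pdcd1, and none lower, with a median of 0.25. Tnfrsf4, which encodes the costimulatory receptor OX40, was at 234 and 340 CPM (1.45, 1.30 to 1.62), and Lag3 had 131 and 174 UMIs (1.44, 1.14 to 1.83), against 0.949 and 0.479 with B cells. Ctla4 itself was at 468 and 434 CPM (0.927, 0.85 to 1.01). Nav2, a cytoskeletal regulator found in the Tfh-like cluster, had 50 and 151 UMIs (3.28, 2.37 to 4.62), and 2.99 with B cells. Other high ratios were those of Abcb1a, a drug efflux pump (2.43), Prickle1 (2.17), Rgs16, a regulator of G protein signals (2.07), and the potassium channel gene Kcnq5 (1.70).

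The type I interferon list was lower in antigen-experienced CD4 cells, with 23 of 27 genes below 0, 3 past 1.5-fold lower and a median of -0.23. Isg15, a ubiquitin-like protein induced by interferon, was at 133 and 86.2 CPM (0.65, 0.541 to 0.779). Ifi27l2a, an interferon-induced mitochondrial protein, was at 1778 and 1370 CPM (0.771, 0.736 to 0.807), against 1.10 with B cells. Gbp2, a guanylate-binding protein induced by interferon gamma, was at 53.0 and 25.4 CPM (0.48, 0.345 to 0.661). The cluster with Isg15 and Ifih1 among its 10 leading genes held 16 and 6 of the antigen-experienced cells, and its part in these values was not tested. Ifng did not share this direction, with 168 and 162 UMIs (1.05, 0.84 to 1.31). Other low ratios were those of Jagn1 (0.43), the zinc finger gene Zfp51 (0.452), the small GTPase gene Rras2 (0.519) and Pdzk1ip1 (0.532).

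Treg-like cells differed in cell cycle, checkpoint and interferon genes, while the genes that define them were at like levels. Foxp3, Ctla4, Ikzf2 and Il2ra took part in naming the class, so like levels of them are not an independent result. Foxp3, the lineage factor, was at 324 and 317 CPM (0.979, 0.907 to 1.06), read in 419 and 490 cells. Ctla4 was at 921 and 982 CPM (1.07, 1.02 to 1.11). Ikzf2, which encodes Helios, was at 971 and 1106 CPM (1.14), Icos at 271 and 300.3 CPM (1.11), and Il2ra, the high-affinity IL-2 receptor chain, at 343 and 286 CPM (0.833, 0.771 to 0.899), against 1.2 with B cells. Gpr83, a receptor of resting Treg cells, was at 85.2 and 63.4 CPM (0.743, 0.633 to 0.872). None of the 17 Treg programme genes was past 1.5-fold in either direction and their median was 0.06. Of 7303 genes with at least 100 UMIs, 1.2% were at least 1.5-fold higher and 0.424% lower, and of the 9627 with at least 20 UMIs 4.78% and 2.22%, with a median of 0.04.

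Proliferation genes were higher in the Treg-like class. Of 28 cell cycle genes 10 were past 1.5-fold higher and 1 lower, and the median was 0.26. Mki67, which encodes the proliferation marker Ki-67, had 77 and 177 UMIs in 25 and 53 cells (1.92, 1.46 to 2.55), and 2.21 with B cells. Birc5, which encodes survivin, had 9 and 34 UMIs (3.16, 1.48 to 7.49), against 0.303 with B cells, and Stmn1, a microtubule regulator, was 1.55-fold higher (1.23 to 1.96). Without a Treg cluster of low UMI counts the median was 0.15 and the Mki67 ratio 2.82. Rad51b, a recombination repair gene, had 147 and 430 UMIs (2.45, 2.02 to 2.97). Ryr2 (2.23), a calcium channel of internal stores, Ptpn5 (2.30), Dusp14 (2.10), both phosphatases, and C2cd4b (2.07) were the other genes with the highest ratios, and Nrros, which tethers latent TGF-beta, had a ratio of 0.589.

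Several checkpoint genes of the Treg-like class were higher as well. Lag3, an inhibitory receptor that binds MHC class II, was at 45.3 and 74.7 CPM (1.65, 1.37 to 1.99), against 1.08 with B cells, and Cd200, an inhibitory ligand, at 54.3 and 84.8 CPM (1.56, 1.32 to 1.85), against 1.32. They were the 2 genes past 1.5-fold of the 17 in the activation and checkpoint list, of which 16 lay above 0 and the median was 0.19. The antigen receptor list had 3 of 15 genes past 1.5-fold higher, Egr3 (24 and 75 UMIs, 2.61, 1.63 to 4.33), Egr2 (1.60) and Spry1 (1.52), a feedback inhibitor of receptor signals, and a median of 0.19. Ccr8, a chemokine receptor of tissue and tumour Treg cells, was at 107 and 142 CPM (1.32, 1.17 to 1.5), against 1.27 with B cells. Within the effector Treg list 4 of 16 genes were past 1.5-fold lower and none higher: S100a4 at 95.2 and 55.2 CPM (0.58, 0.493 to 0.682), Klrg1 at 69 and 35 UMIs (0.424), Gzmb at 32 and 9 UMIs (0.235) and Ccr2 at 72 and 54 UMIs (0.627). Single cells held 44.9% of the higher sum of Klrg1 and 37.5% of that of Gzmb. The median of that list was 0.05, with 11 genes above 0. Interferon-response genes were lower in 21 of 28 members with a median of -0.25, with 2 past 1.5-fold lower and 1 higher. Ifit3, an antiviral protein, had 39 and 18 UMIs (0.386, 0.208 to 0.691), Isg15 was at 84.0 and 68.9 CPM (0.821), and the chemokine gene Cxcl10 had 219 and 165 UMIs (0.63), against 3.23 with B cells. Neutrophil markers summed to 85.0 and 144.5 CPM in the Treg-like class and B cell markers to 65.3 and 47.1 CPM, and their part in these values was not tested.

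**Figure D3:**
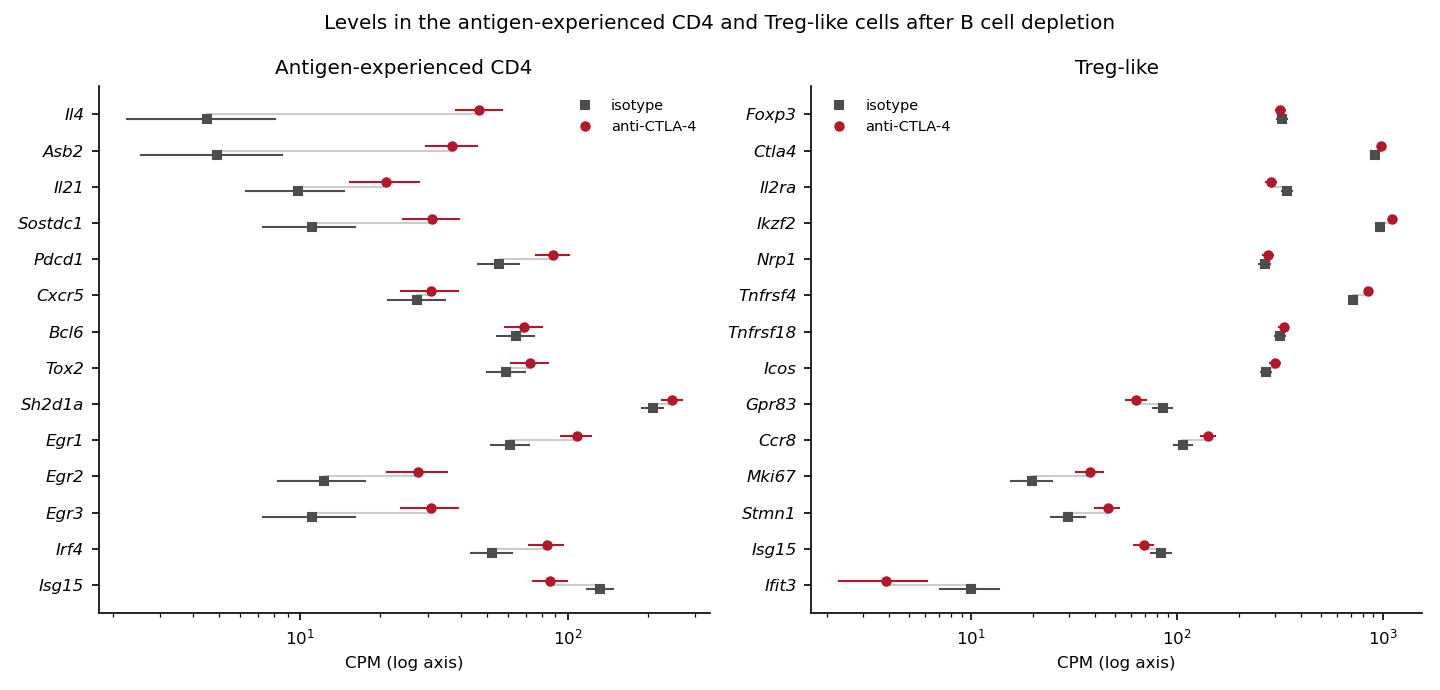
CPM on a log axis of selected genes in antigen-experienced CD4 cells and in Treg-like cells of the isotype and anti-CTLA-4 libraries after depletion, with exact 95% Poisson intervals. Il4 (4.52 and 46.9 CPM) and Asb2 (4.93 and 37.1 CPM) are farthest apart in antigen-experienced CD4 cells. Foxp3 (324 and 317 CPM), which took part in naming the Treg-like class, nearly coincides there.

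Memory CD8-like cells had higher transcripts of immediate early genes. Of 7408 genes with at least 50 UMIs, 2.24% were at least 1.5-fold higher and 1.77% lower, and of the 8719 with at least 20 UMIs 4.52% and 3.53%, with a median of -0.01. The AP-1 list had 13 of 14 genes above 0, 2 past 1.5-fold and a median of 0.37. Nfkbid, an atypical inhibitor of NF-kappa-B, was at 52.0 and 94 CPM (1.81, 1.47 to 2.23), and Tnfaip3, the feedback enzyme A20, at 277 and 423 CPM (1.53). Ifng, the effector cytokine of CD8 cells, had 57 and 132 UMIs in 25 and 48 cells (1.67, 1.21 to 2.32), against 1.58 with B cells, and the chemokine Ccl4 had 174 and 350 UMIs (1.45, 1.2 to 1.75), against 1.70. Hspb1 had 26 and 112 UMIs (3.10, 2.01 to 4.95). Klrk1, which encodes the activating receptor NKG2D, had 44 and 117 UMIs in 19 and 43 cells (1.91, 1.34 to 2.77). Klra6, an inhibitory Ly49 receptor, had 71 and 40 UMIs (0.406, 0.268 to 0.606). Of 13 cytotoxic genes 2 were past 1.5-fold higher and 2 lower, and Gzma and Gzmk, granzyme genes among them, each had over 40% of the higher sum in 1 cell (42.1% and 70%). Ccl5, the most abundant of them, was at 2558 and 2483 CPM (0.971). Pikfyve, a lipid kinase, had a ratio of 0.442 and of 2.02 with B cells.

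The Ly6c2-led CD8 cluster had the highest AP-1 median of the classes compared. Of 6730 genes with at least 50 UMIs, 2.7% were at least 1.5-fold higher and 2.11% lower, and of the 8268 with at least 20 UMIs 5.27% and 4.18%, with a median of 0.01. All 13 AP-1 genes counted were above 0, 5 past 1.5-fold, with a median of 0.46, against -0.01 in the pair with B cells. Jun was at 248 and 439 CPM (1.77, 1.60 to 1.97), Fos at 97.4 and 169 CPM (1.74, 1.47 to 2.06) and Fosb had a ratio of 2.58. Of 11 genes counted in the antigen receptor list 4 were past 1.5-fold higher, with a median of 0.49: Nr4a1 (23 and 49 UMIs, 2.50), Nr4a3 (14 and 27 UMIs, 2.26), Egr1 (1.86) and Nr4a2 (1.56). Rhob, a small GTPase of the immediate early kind, had 48 and 116 UMIs (2.84). Il31ra, a cytokine receptor, was at 997 and 698 CPM (0.701), and Ly6c2 at 1313 and 1625 CPM (1.24). Metap1 (2.51, and 0.364 with B cells) and the polymerase gene Rev1 (0.469, and 2.35) had opposite directions in the 2 pairs.

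The interferon-responding clusters were named from interferon-response genes, Isg15 among them, so such genes took part in choosing the cells. In these clusters the interferon list had medians near 0, which is not an independent result. The median was 0.07 in the CD4 cluster, with 3 of 28 genes past 1.5-fold higher and 1 lower, and of 0.03 in the CD8 cluster, with 1 higher and 1 lower. In the CD4 cluster 3.49% of 4216 genes with at least 50 UMIs were higher and 2.66% lower, and 8.14% and 6.52% of the 6839 with at least 20. In the CD8 cluster the shares were 3.48% and 2.49% of 5145 genes, and 7.35% and 5.51% of 7453. Isg15 was at 181 and 277 CPM in the CD4 cluster (1.53, 1.24 to 1.88). In the CD8 cluster Isg15 had a ratio of 1.14, while Ifi27l2a was at 622 and 392 CPM (0.631). Fos was at 121 and 228 CPM there (1.88, 1.53 to 2.32), against 0.632 with B cells. Tor1a, an endoplasmic reticulum ATPase gene, had a ratio of 3.05 in the CD4 cluster and Ppif, which encodes mitochondrial cyclophilin D, of 0.378.

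Ifi27l2a was lower in all the larger T cell classes. It was at 371.5 and 292 CPM in naive CD4-like cells (0.786, 0.756 to 0.817), at 313 and 219.8 CPM in naive CD8-like cells (0.702, 0.672 to 0.732), at 1028 and 809 CPM in Treg-like cells (0.786) and at 198 and 124 CPM in memory CD8-like cells (0.626). The rest of the interferon list did not move as far in naive cells, where its median was -0.08 in CD4 and -0.01 in CD8 and none of 28 genes was past 1.5-fold. Isg15 was at 27.0 and 26.9 CPM in naive CD4-like cells. Over all cells Ifi27l2a was at 477 and 362 CPM (0.758), against 0.993 with B cells.

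**Figure D4:**
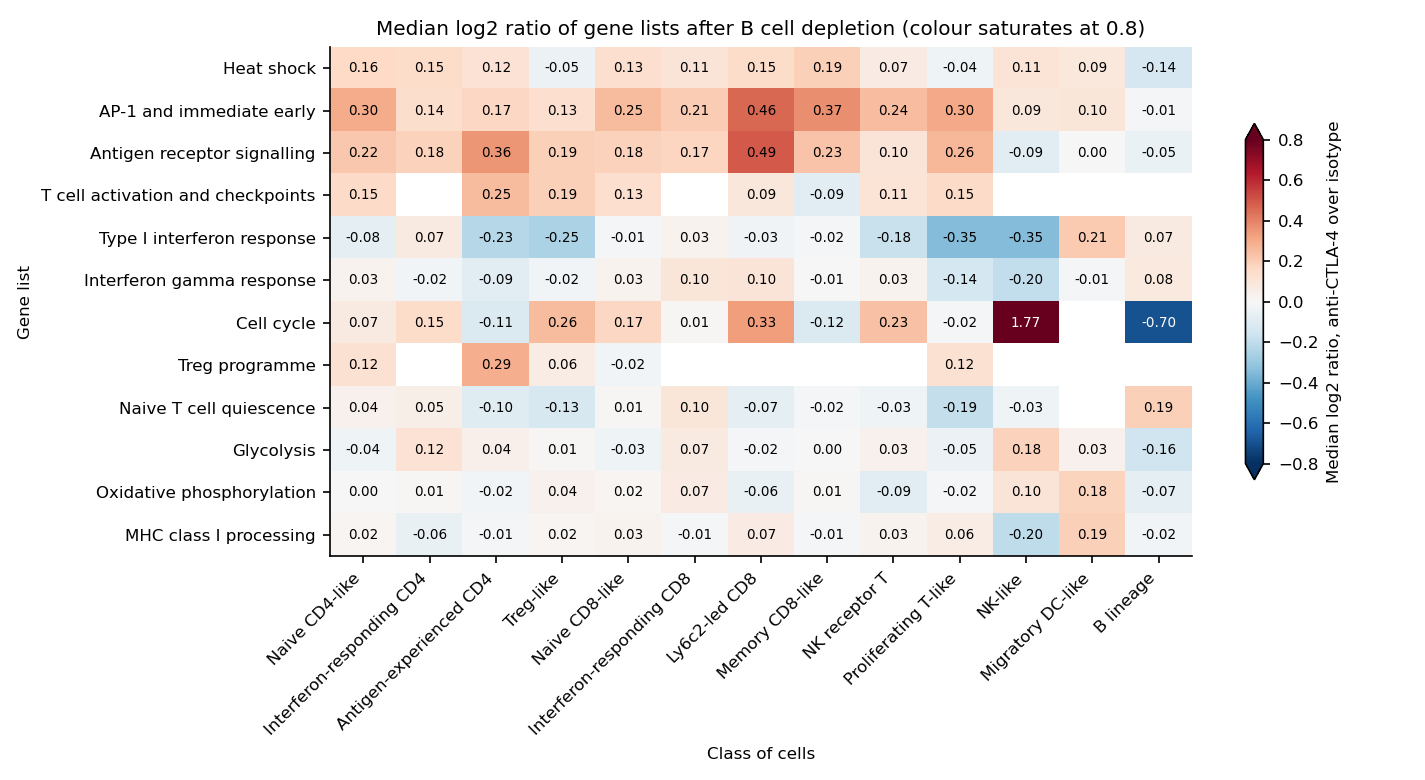
Median log2 ratio, anti-CTLA-4 over isotype after depletion, of each gene list (vertical axis) in each class of cells (horizontal axis), as colour and number, blank where under 9 members had 20 UMIs. The AP-1 list is positive in naive CD4-like (0.30) and Ly6c2-led CD8 cells (0.46), and the type I interferon list is negative in NK-like (-0.35) and proliferating T-like cells (-0.35).

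Among other differences, T cells with NK receptors showed the HSP70 difference. They were a cluster with Klra and Klr genes and the gamma-delta gene Trdc among its 10 leading genes. The cluster was split from CD8 cells but did not meet the marker rule that named the CD8 classes. Of 5323 genes with at least 50 UMIs, 3.04% were at least 1.5-fold higher and 3.48% lower, and of the 7625 with at least 20 UMIs 6.61% and 6.85%, with a median of -0.03. Of 14 heat shock genes 4 were past 1.5-fold higher, with a median of 0.07: Hspa1a, Hspa1b, Hsph1 (1.58) and Bag3 (1.60, 0.974 to 2.67), a co-chaperone, so that 2 of the 4 are the near-identical copies. Tnf, an inflammatory cytokine, had 12 and 45 UMIs in 10 and 19 cells (3.11). Btla, an inhibitory receptor, had 17 and 44 UMIs in 16 and 38 cells (2.15, 1.2 to 4.01), and the activation marker Cd69 211 and 357 UMIs (1.40, 1.18 to 1.67). Ccl5 was at 8166 and 6399 CPM (0.783), and Klrc1, which encodes the inhibitory receptor NKG2A, had a ratio of 0.608. Orai1, the store-operated calcium channel, had a ratio of 0.51, and the tubulin gene Tuba1c of 0.374.

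Proliferating T-like cells had lower interferon and ribosome biogenesis genes, with cell cycle genes at like levels. The class was named from proliferation markers, Mki67 among them, so like levels of cell cycle genes are not an independent result. Of 6969 genes with at least 50 UMIs, 2.78% were at least 1.5-fold higher and 3.47% lower, and of the 8626 with at least 20 UMIs 4.87% and 6.57%, with a median of -0.01. Mki67 was at 664 and 648 CPM (0.975), and none of 30 cell cycle genes was past 1.5-fold. The interferon list had 21 of 22 genes below 0 and 7 past 1.5-fold lower, with a median of -0.35, against 0.60 with B cells. Rtp4, an interferon-induced chaperone of receptors, had 67 and 18 UMIs in 29 and 14 cells (0.327, 0.183 to 0.557), Irf7, the factor that amplifies interferon production, 60 and 23 (0.466, 0.275 to 0.766), and Isg15 was at 50.9 and 30.1 CPM (0.592). Of 19 Myc and ribosome biogenesis genes 4 were past 1.5-fold lower, with a median of -0.29, and Odc1, an enzyme of polyamine synthesis, was the 1 member above 0 (1.26, 1.12 to 1.42). Cxcl10 had 89 and 172 UMIs (2.35), and Itgb1, the beta-1 integrin chain, was at 237 and 440.4 CPM (1.86). The transcription factors Pbx3 (3.15), Nfia (2.73) and Plagl1 (2.50) had the other high ratios, and Kpna2, a nuclear import factor, was at 0.54. The class mixes T cell types, whose shares within it were not resolved.

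NK-like cells under anti-CTLA-4 had more granzyme B and Ly6c2 transcript and lower interferon-response genes. Of 3750 genes with at least 50 UMIs, 6.08% were at least 1.5-fold higher and 4.99% lower, and of the 6473 with at least 20 UMIs 10.9% and 9.58%, with a median of -0.01. Gzmb, a protease of cytotoxic granules, had 64 UMIs (131 CPM) in 23 cells and 254 UMIs (357 CPM) in 35 cells, a ratio of 2.74 (2.07 to 3.66), and 1.17 with B cells. Ly6c2, a surface antigen of mature NK cells, had 107 and 362 UMIs in 14 and 28 cells (2.33, 1.87 to 2.92). Nr4a1 had 578 and 978 CPM (1.69), against 0.753 with B cells, and Il7r 214 and 111 CPM (0.519, 0.382 to 0.701), against 2.27. Gzma (1.11, 1.04 to 1.18, and 0.974 as a mean over cells) and the pore-forming Prf1 (1.27, 0.987 to 1.64) differed less, and only 1 of 13 cytotoxic genes, Gzmb, was past 1.5-fold. Ccl3, a chemokine, had 147 and 293 UMIs (1.37, 1.12 to 1.69), while Ccl5 was at 8877 and 7007 CPM (0.789). T cell markers summed to 384 and 622 CPM in the class, and the part of T cell RNA in these values was not tested.

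NK receptors had 15 of 20 genes below 0, 1 past 1.5-fold lower (Fcgr3, the antibody receptor CD16, 32 and 24 UMIs) and a median of -0.16. Klrk1 was at 814 and 612 CPM (0.751, 0.654 to 0.863), Ncr1, the NK lineage receptor NKp46, at 716 and 626 CPM (0.874, 0.758 to 1.01), and Klra4, an activating Ly49 receptor, had 312 and 533 UMIs (1.18, 1.02 to 1.36). All 15 MHC class I genes were below 0, none past 1.5-fold, with a median of -0.20, and H2-K1, a class I heavy chain, was at 4032 and 3301 CPM (0.819, 0.771 to 0.87). The interferon list had 18 of 19 genes below 0 and 8 past 1.5-fold lower, with a median of -0.35. Trim30a had 49 and 42 UMIs (0.591, 0.382 to 0.911), and Usp18, an inhibitor of interferon receptor signals, 20 and 7 UMIs, with 50% of the higher sum in 1 cell. Of 21 cell cycle genes 18 were past 1.5-fold higher with a median of 1.77, and this rested on a cluster of 1 and 5 cells with a median of 17795.5 UMIs. Mki67 had 3 and 91 UMIs, of which 54.9% lay in 1 cell. Without that cluster the cell cycle median was 0.36, the interferon median -0.50, and the ratios were 2.59 for Gzmb and 2.50 for Ly6c2.

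Gamma-delta T-like, innate-like T and ILC-like cells were too few for a comparison over all genes, and their marker levels are given. In the 11 and 14 gamma-delta T-like cells Il23r, the receptor of the cytokine that maintains IL-17-producing cells, had 25 and 61 UMIs in 9 and 13 cells (2.33). Cd163l1, a scavenger receptor of these cells, had 133 and 180 UMIs (1.29), Trdc, the delta constant region, 33 and 29, and Fos 18 and 63 UMIs in 3 and 9 cells (3.34). Tnfaip3 had 59 and 111 UMIs (1.80). Hspa1a and Hspa1b together had 20 and 144 UMIs in 5 cells of each library (6.88, 4.29 to 11.6), and 58.5% of the higher Hspa1b sum lay in 1 cell.

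In the 28 and 22 innate-like T cells Il23r had 59 and 102 UMIs (1.98) and Il1r1, the interleukin 1 receptor, 32 and 60 (2.14). Zbtb16, the factor PLZF that defines innate-like T cells, had a ratio of 1.16. Il23r was thus higher in both innate T clusters and in ILC-like cells, where it had 20 and 48 UMIs (2.41). In the 38 and 35 ILC-like cells the cytokine sums were lower: Il22, a barrier cytokine, had 341 and 70 UMIs in 5 and 5 cells, Il13, a type 2 cytokine, 146 and 18 UMIs in 11 and 8 cells, and Areg, a tissue repair factor, 395 and 217 UMIs in 22 and 19 cells (0.551). Single cells held 50.1% of the higher sum of Il22 and 39% of that of Il13. The lineage genes Rora (1.26), Gata3 (0.978) and Il7r (1.01) differed less.

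Migratory DC-like cells, named from Fscn1, carried a mixed maturation picture. Of 2660 genes with at least 50 UMIs, 5.6% were at least 1.5-fold higher and 7.59% lower, and of the 5286 with at least 20 UMIs 9.29% and 13.2%, with a median of -0.07. The maturation list had 10 of 20 genes above 0, 1 past 1.5-fold higher and 4 lower, and a median of -0.05. Ccl17, a chemokine that draws CCR4-bearing T cells, was at 133 and 304 CPM in 17 and 27 cells (2.28), and Ccl22, which binds the same receptor, at 1482 and 742 CPM (0.50), with 37% of the higher sum in 1 cell. The homing receptor Ccr7 was at 2496 and 1788 CPM (0.716, 0.655 to 0.783), and the actin bundler Fscn1 at 3937 and 4652 CPM (1.18, 1.11 to 1.26). With B cells Ccr7 had a ratio of 1.84.

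The ligands of CTLA-4 and CD28 differed in direction in migratory DC-like cells. Cd80 was at 105 and 62.8 CPM (0.599, 0.372 to 0.96), with 41 and 36 UMIs, and Cd86 at 169 and 215 CPM (1.27, 0.935 to 1.74), with 66 and 123 UMIs. Cd274, which encodes PD-L1, was at 353 and 253 CPM (0.717, 0.564 to 0.911), against 1.84 with B cells, and Cd40, the receptor for T cell help, at 361 and 395 CPM (1.09). Tnfsf9, which encodes 4-1BB ligand, had 36 and 15 UMIs in 12 and 11 cells (0.284, 0.144 to 0.532), with 30.6% of the higher sum in 1 cell, against 6.66 with B cells. Il12b, a subunit of IL-12, had 26 and 35 UMIs.

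MHC class II genes of migratory DC-like cells had a median of 0.12, with 1 of 8 past 1.5-fold in each direction, and this rested on the mix of clusters, since the median was 0.47 in the largest cluster alone and -0.35 in the second alone. H2-Aa, a class II chain, was at 3546 and 4049.9 CPM (1.14, 1.07 to 1.22), and Cd74, the invariant chain, at 6946 and 7517 CPM (1.08, and 0.764 in the cluster of 17 and 25 cells alone). The 15 MHC class I genes had a median of 0.19, with 13 above 0 and 1 past 1.5-fold higher. The interferon list had a median of 0.21, with 1 of 15 past 1.5-fold in each direction. Egr1 had 15 UMIs in 3 cells and 92 UMIs in 21 cells, 38.4 and 161 CPM, a ratio of 4.18 (2.41 to 7.77), against 0.159 with B cells. Txn1, thioredoxin, was at 533 and 993 CPM (1.87), Tagln2, an actin-binding protein, at 617 and 1112 CPM (1.80), and Gem, a small GTPase, had a ratio of 3.20. Ndrg1, a gene known to respond to low oxygen, was at 131 and 41.9 CPM (0.321), against 1.79 with B cells. Rbpj, the Notch effector factor, had a ratio of 0.449, Nabp1 of 0.393, Cd2ap of 0.379 and Cdh2, N-cadherin, of 0.322. The class was made of 3 clusters with 38 and 41, 17 and 25, and 3 and 14 cells, the last led by Lyz2. T cell markers were at 25.6 and 20.9 CPM in it.

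**Figure D5:**
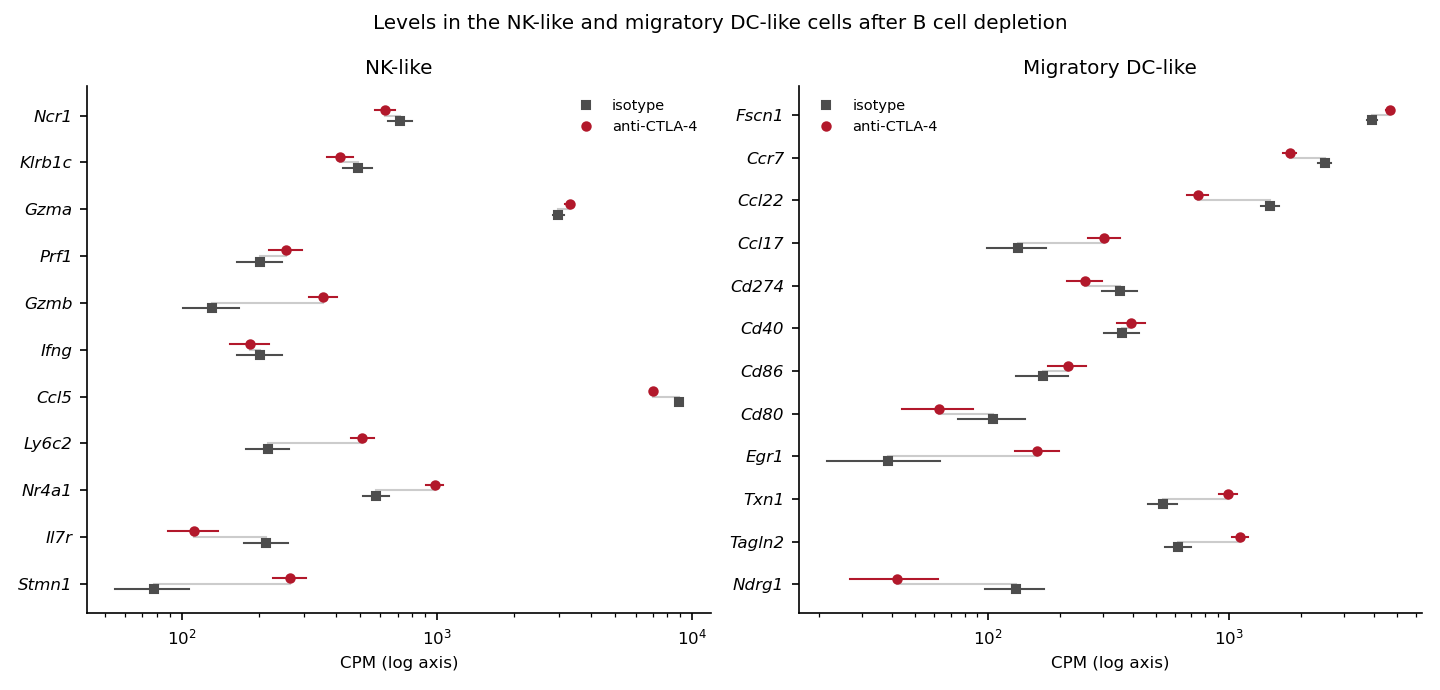
CPM on a log axis of selected genes in NK-like and migratory DC-like cells of the isotype and anti-CTLA-4 libraries after depletion, with exact 95% Poisson intervals. In NK-like cells Gzmb (131 and 357 CPM) is higher and Il7r (214 and 111 CPM) lower under anti-CTLA-4, and in migratory DC-like cells Ccr7 (2496 and 1788 CPM) is lower and Ccl17 (133 and 304 CPM) higher.

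Among the other myeloid cells the sums were small. The 18 and 6 cDC1-like cells had medians of 17296.5 and 25027 UMIs. Their Cxcl9, a chemokine induced by interferon gamma, had 349 and 96 UMIs in 10 and 4 cells (0.569), Xcr1, the cDC1 chemokine receptor, 56 and 59 UMIs (2.18), and Clec9a, the receptor for dead cells, 120 and 37 UMIs (0.638). In the 25 and 20 plasmacytoid DC-like cells Rgs1 had 15 and 84 UMIs in 7 and 13 cells (6.30), Nr4a1 21 and 58 (3.11), and Klf2, a quiescence and trafficking factor, 63 and 133 (2.38). The defining genes Siglech (0.859), Bst2 (0.853) and Irf7 (1.22) differed less, and Cox6a2, a plasmacytoid DC marker, had 372 and 167 UMIs (0.505).

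The other myeloid cells, 31 and 21, were 3 unnamed clusters in proportions of 23 and 14, 5 and 7, and 3 and 0. The last of these had Ccl3 and Ccl4 as its leading genes. The genes named next were chosen after their values were seen. Ccl3 had 180 and 9 UMIs in 4 and 1 cells, Ccl4, a related chemokine, 312 and 14 in 6 and 3 cells, and Egr1 159 and 7 in 12 and 4 cells (0.0498). H2-Ab1, an MHC class II chain, was at 7268 and 10719 CPM (1.47), and Plac8, a gene of monocytes and some DC, had 178 and 465 UMIs in 13 and 14 cells (2.96). Cd209a, a marker of monocyte-related DC, had 93 and 132 UMIs (1.61), and the monocyte receptor Ccr2 23 and 28. Neutrophil-like cells, 12 and 7, had medians of 6329 and 2116 UMIs. Their Il1b, the inflammatory cytokine, had 188 and 152 UMIs in 9 and 4 cells, and S100a9, a granule protein, 227 and 257 UMIs, with 64.2% of the higher sum in 1 cell.

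The B lineage cells that remained after anti-CD20 had Ms4a1 transcript at like levels, 555 and 551 CPM, with 393 and 554 UMIs in 56 and 78 cells (0.993). Of 4232 genes with at least 50 UMIs, 8.03% were at least 1.5-fold higher and 4.99% lower, and of the 6877 with at least 20 UMIs 12.7% and 8.72%, with a median of 0.04. All 27 cell cycle genes were below 0, 17 past 1.5-fold lower, with a median of -0.70, against 0.62 with B cells. Stmn1 had 220 and 106 UMIs (0.339), and Tubb5 was at 789.9 and 358 CPM (0.454). In the germinal centre B-like cells alone, 24 and 40, Mki67 had a ratio of 0.563 and Stmn1 of 0.342. Without these cells the cell cycle median of the B lineage was 0.46, and the germinal centre list, with a median of 0.41 and 3 of 10 genes past 1.5-fold higher, had -0.51. S1pr2, which confines B cells to the germinal centre, had 28 and 74 UMIs (1.86). Rgs1 had 36 and 185 UMIs (3.62, 2.52 to 5.33). Igha, the IgA heavy chain, had 4087 and 9244 UMIs in 6 and 17 cells, with 43.7% in 1 cell.

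Over all cells of each library, where the mix of classes also counts, 0.806% of 10800 genes with at least 100 UMIs were at least 1.5-fold higher and 0.509% lower, and of the 12552 with at least 20 UMIs 3.24% and 2.29%, with a median of 0.03. Ctla4 was at 129 and 142 CPM (1.10, 1.07 to 1.14), against 1.14 with B cells, and Foxp3 had a ratio of 1.10. Ms4a1 had a ratio of 1.26. The costimulatory genes Cd28 (0.988), Cd80 (0.956) and Cd86 (0.993) were within 5% of 1 in the depleted pair. Jun (1.36) and Fos (1.33) were higher over all cells and had ratios of 0.918 and 0.952 in the pair with B cells. Hspb1 was at 8.45 and 13.9 CPM (1.64), against 0.678 with B cells.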

How the data were processed

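Per the file headers, the deposited gene by cell tables hold counts of UMIs made with Cell Ranger 7.0.1, and the submitters' processing notes name bcl2fastq 2.20.0 and mm10. All 32285 genes were read. The gene lists, classes and comparison were chosen with earlier results of these data known, and the thresholds for naming clusters were set after the clusters were seen. In the 5 expression libraries, cells with at least 500 genes and at most 10% mitochondrial UMIs were kept, which removed 64 and 88 barcodes of the depleted pair. Scrublet scores, computed in scanpy 1.11.5, set no usable automatic threshold in the depleted libraries (0 cells marked), so the highest scores were removed at 0.8% per 1000 barcodes (641 and 651 cells). Counts scaled to 10000 per cell, 2000 variable genes, 30 components and 15 neighbours went into Leiden clustering (leidenalg 0.10.2, resolution 1, seed 0), and clusters were named from markers. UMIs were summed per library and class to CPM, with exact Poisson intervals. Ratios of UMIs have exact conditional binomial intervals (scipy 1.17.1). Ratios of shares of cells, from clusters or from marker UMIs, have intervals from a normal approximation on the log scale. These share ratio intervals are not exact, which matters most in classes of few cells. Exact Clopper-Pearson intervals were made for the shares themselves and are not printed. In each class compared over all genes (at least 50 cells in both libraries), genes were named that had at least 100 UMIs (50 in classes of under 300 cells), no cell with over 20% of the higher library's UMIs and at least 10% of their highest class level: the 5 highest and 5 lowest by the interval bound nearest 1, without receptor segments, mitochondrial, ribosomal and unnamed genes. List members and Ctla4, Ms4a1, Cd28, Cd80 and Cd86 were added. In classes of under 50 cells, genes were chosen after their values were seen. The ratio calculation was tested on simulated data. The 3 receptor libraries were not used here.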

Additional observations from a re-analysis of the deposited data

Results flagged for a closer look

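The results below had directions that were opposite in the depleted pair and in the pair with B cells, with counting intervals on opposite sides of 1. The difference between the pairs was not tested, since each side is 1 library, and the pairs share no library. Values are ratios of anti-CTLA-4 over isotype, first after depletion and then with B cells.

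The share of B lineage cells was 1.51 and 0.944, the first from 60 and 91 cells left after anti-CD20. The heat shock genes formed the largest set, and values of Hspa1a or Hspa1b alone are uncertain because reads can be split between these near-identical copies. In naive CD4-like cells Hspb1 was 2.86 and 0.509, Hspa1b 1.48 and 0.75, and Hspa1a 1.48 and 0.749. In naive CD8-like cells Hspa1a was 1.53 and 0.726 and Hspa1b 1.47 and 0.688. In T cells with NK receptors Hspa1b was 1.66 and 0.778 and Hspa1a 1.65 and 0.843, and in interferon-responding CD4 cells Hspa1a was 1.56 and 0.428, where the sum of both copies had a ratio of 1.42 after depletion. Over all cells Hspb1 was 1.64 and 0.678, Hspa1a 1.43 and 0.615, and Hspa1b 1.42 and 0.599.

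Igfbp4 was 1.45 and 0.864 in naive CD4-like and 1.51 and 0.804 in interferon-responding CD8 cells, where Fos was 1.88 and 0.632. Tubb2a was 0.656 and 1.33 in naive CD4-like cells, Tshz1 0.747 and 1.33 in naive CD8-like cells, and the tubulin gene Tubb4b 0.806 and 1.15 over all cells. In Treg-like cells Ptpn12, a phosphatase gene, was 0.564 and 2.55 and Cxcl10 0.63 and 3.23. In memory CD8-like cells Pikfyve was 0.442 and 2.02. In the Ly6c2-led CD8 cluster Metap1 was 2.51 and 0.364 and Rev1 0.469 and 2.35. In proliferating T-like cells Nudt18 was 0.377 and 3.15.

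In NK-like cells Nr4a1 was 1.69 and 0.753, Il7r 0.519 and 2.27, and Hmgb2, a chromatin protein of cycling cells, 1.83 and 0.752. Without a cluster of 1 and 5 NK-like cells the Hmgb2 ratio after depletion was 0.983. In migratory DC-like cells Egr1 was 4.18 and 0.159, Ndrg1 0.321 and 1.79, and Cdh2 0.322 and 2.34. In the B lineage Tubb5 was 0.454 and 1.17, Lmnb1, which encodes lamin B1, 0.551 and 1.22, H2afv, a histone variant gene, 0.594 and 1.14, and Top2a, the topoisomerase of dividing cells, 0.566 and 1.59. Without the germinal centre B-like cells, 24 and 40, the ratios after depletion were 0.695 for Tubb5, 0.91 for Lmnb1 and 1.59 for H2afv.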

How the results depend on the processing

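Of the alternatives, 109 of 118 share ratios, 1409 of 1516 gene ratios and 69 of 87 list medians stayed within the counting interval or the limit set for lists. A ratio whose interval spans 1, or a list median near 0, could change direction and still be counted among these. No paired analysis was possible because each group is 1 library. The cause of a movement was not tested unless the alternative itself leaves cells or genes out. With at least 1000 genes and at most 5% mitochondrial UMIs, the ratio was 1.503 for interferon-responding CD4 cells, 1.14 for the Ly6c2-led CD8 cluster (reversed from 0.839) and 1.22 for memory and Ly6c2-led CD8 cells together. The Ly6c2-led ratio was 0.691 without doublet removal and 1.03 at resolution 2 (reversed). At resolution 0.5 the interferon-responding CD8 ratio was 0.956 (reversed from 1.23). The joint CD8 ratio was 1.2 at resolutions of 0.5 and 2, and 1.22 with the depleted libraries clustered alone, against 1.06.

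The number of genes past the fold depended on its threshold and on the UMI minimum. The lower fold tried and a minimum of 20 UMIs gave, in that order, 500 and 402 genes in naive CD4-like cells (63 as reported), 1525 and 810 in antigen-experienced CD4 cells (337), 833 and 674 in Treg-like cells (119), 1111 and 1003 in interferon-responding CD4 cells (259), 431 and 389 in naive CD8-like cells (43), 1405 and 702 in memory CD8-like cells (297), 1455 and 782 in the Ly6c2-led cluster (324), and 1363 and 959 in interferon-responding CD8 cells (307). The same pair was 1378 and 1026 in T cells with NK receptors (347), 1707 and 987 in proliferating T-like cells (436), 1300 and 1323 in NK-like cells (415), 1034 and 1190 in migratory DC-like cells (351), 1497 and 1470 in the B lineage (551), and 674 and 695 over all cells (142).

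With members of at least 100 UMIs the list medians were -0.17 for interferon in NK-like cells, 0.24 for the Tfh programme, 0.15 and 0.87 for the cell cycle in Treg-like and NK-like cells, and 0.048 for DC maturation. Leaving out single clusters also moved medians. Without the NK-like cluster of 1 and 5 cells interferon was -0.50 and the cell cycle 0.36, and Hmgb2 (0.983) and Stmn1 (0.676) reversed. Antigen receptor signalling in antigen-experienced CD4 cells was 0.23 without the Tfh-like and 0.50 without the S100a4-led cluster, and the Treg-like cell cycle was 0.15 without the low-UMI cluster. Without germinal centre B-like cells the B lineage cell cycle (0.46), the germinal centre programme (-0.51), H2afv (1.59) and Mki67 (9.0) reversed. Without plasma cell-like cells these lists were -0.89 and 0.53, and Ighm (0.957) reversed. In migratory DC-like cells maturation was 0.049 without the Lyz2-led cluster and 0.057 in the largest cluster alone, and MHC class II was 0.47 in the largest and -0.35 in the second cluster alone (reversed). Cd74 reversed without doublet removal (0.955), without the Lyz2-led cluster (0.958) and in the second cluster alone (0.764), and Gzma in NK-like cells as a mean over cells (0.974).

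Classes of under 100 cells limit what counting can show: with 74 and 87 NK-like cells the interval of the share ratio spans 0.858 to 1.59, and with 11 and 14 gamma-delta T-like cells 0.574 to 2.78. Differences between animals within a group cannot be seen in 1 library.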

Other observations

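Clps, which encodes pancreatic colipase, had 0 UMIs in the 8950 isotype cells, which allows a share of cells with a detected UMI of up to 0.0335% and sets no limit on cells that express the gene, and 131 UMIs in 125 of 9019 anti-CTLA-4 cells (1.39%), with at most 2 UMIs per cell. The DPBS library and the isotype and anti-CTLA-4 libraries of the pair with B cells held 1, 2 and 0 UMIs of it. The cells with a Clps UMI were spread over classes, with 47 naive CD4-like cells (1.62%) and 27 naive CD8-like cells (1.09%), and no migratory DC-like cell had one. These values were noticed in the data and chosen after they were seen.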
